A study of Mus musculus with 8 samples.

Results

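The genes described here are 40 mouse genes of DNA excision and recombination repair, chosen by symbol and grouped by pathway: 13 of base excision repair, 12 of nucleotide excision repair, 8 of homologous recombination, 2 translesion polymerases, 4 checkpoint kinases and the mismatch repair gene Msh6. Each was read from probe sets that the platform annotation gives a single gene symbol, and where a gene had several the probe set that read brightest on average was used. This gave values for 37 of the 40 genes, among 22180 genes measured in the series. Apex1, Mpg and Ddb2 lie on probe sets that list several genes and were not read. Nthl1 is given under its older symbol, Nth1.

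Expression was measured on Affymetrix whole-transcript arrays in cultured mouse melanocytes, which make the pigment of skin and hair, taken from pups aged 1 to 5 days and kept for 22 days in the medium MGM-2. KO cells were Atg7 f/f with Tyr::Cre, in which the tyrosinase promoter drives Cre and autophagy is deficient; WT cells were Atg7 f/f without Cre, so both genotypes carry the floxed alleles, and a cell in the culture that does not use the tyrosinase promoter would keep Atg7. UVA-1, which is ultraviolet A of the longer wavelengths, was given at 20 J/cm², sham-treated cells received none, and lysis for RNA followed after 6 h. The groups are KO UVA, KO sham, WT UVA and WT sham, with 2 arrays each, numbered 1 and 2, called biological duplicates by the submitters and labelled female. What a number stands for is not labelled, and neither is whether UVA and sham arrays of a number share a culture, so p-values measure only the spread between these arrays.

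Base excision repair removes small damaged bases, above all oxidised ones: a glycosylase cuts out the base, and a polymerase and a ligase refill the gap around the scaffold protein Xrcc1. Nucleotide excision repair removes bulky lesions such as the pyrimidine dimers that ultraviolet light makes; sensors find the lesion, the helicases of TFIIH open the helix and a pair of nucleases cut on either side. Homologous recombination repairs breaks from the sister chromatid and works in S and G2 phase, and many of its genes are transcribed mainly in dividing cells. In pigment cells, UVA-1 is known to give oxidised bases as well as dimers.

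Levels below are log2 intensities, pairs of values are given with replicate number 1 before number 2, and differences are KO minus WT or UVA minus sham on the log2 scale. Adjusted p is from limma with the replicate number as a block, over all 22180 genes, against a threshold of 0.05; "averaged" means over both treatments or both genotypes. Probe sets differ in how brightly they read, so levels of different genes are not set against each other. Medians of the arrays lay between 110 and 115 in linear intensity, and precision is limited by how few arrays there are.

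Arrays of number 2 stood apart from those of number 1 in every group. The summed linear intensity of 24 mitosis genes was 4345 and 20287 in KO UVA, 4330 and 23363 in KO sham, 4723 and 29701 in WT UVA, and 4866 and 36878 in WT sham. That of 12 fibroblast markers was 51939 and 21105 in KO UVA, 54999 and 22812 in KO sham, 52233 and 9286 in WT UVA, and 53908 and 10691 in WT sham. The number 2 arrays thus had more mitosis signal and less fibroblast signal, and within number 2 the KO arrays had less mitosis and more fibroblast signal than the WT arrays. The 12 melanocyte markers, read for the labelled cell type, summed to between 58183 and 62129 in number 1 and between 92129 and 108983 in number 2. No value on the arrays was below 7, so a reading above 0 tells nothing about cell type. Atg7 read 9.65 and 9.23 in KO UVA, 9.70 and 9.22 in KO sham, 9.97 and 9.70 in WT UVA, and 9.95 and 9.75 in WT sham; its averaged difference of -0.39 did not pass (adjusted p = 0.297), and a probe set outside the deleted part would check nothing.

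No repair gene passed the test in any of the 7 comparisons. For KO against WT averaged over treatments, 0 of 37 passed, where 0.0316% of all genes tested did, and 6 of 37 had an unadjusted p under 0.05, against 8.88% of all genes. Those 6 were Rad51ap1, Blm, Fancd2, Fanci, Neil3 and Chek2, and all had negative differences. Of the 37 genes 30 had a negative averaged difference, with a median of -0.08 against -0.01 over all genes; 17 were negative in both replicate numbers, where 26.5% of all genes were. No repair gene had all KO arrays below all WT arrays, a pattern seen in 0.942% of all genes, nor all above (0.866%). At shares this low, finding none among 37 genes says little. The pattern also cannot occur where the numbers differ by more than the genotypes, as in the recombination genes below.

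Homologous recombination genes had the most negative class median. All 8 were below WT on average, with a median difference of -0.29. That median was only -0.003 in number 1, against -0.55 in number 2. In both numbers 4 of 8 were negative, where 26.5% of all genes were. The number 1 arrays read low for this class, where array medians were 110 to 115 in linear intensity. There Rad51ap1 read 58 to 95, Fanci 65 to 73 and Blm 126 to 146. The skeletal muscle gene Myod1 read 93 to 118 over all arrays. Whether readings this low can show a genotype difference was not tested. Rad51ap1, which stimulates strand pairing, read 5.88 and 7.10 in KO UVA, 5.86 and 7.04 in KO sham, 6.34 and 7.81 in WT UVA, and 6.57 and 7.93 in WT sham. Within each number, every KO array lay below every WT array, while the KO arrays of number 2 lay above the WT arrays of number 1. Its averaged difference was -0.69 (SE 0.08, 95% interval -0.88 to -0.50), or 0.62 of the WT level, with -0.58 in number 1 and -0.79 in number 2. By p it ranked 12 of 22180 genes and missed the threshold (adjusted p = 0.102). The adjusted p was 1 without the replicate block and 0.996 with the UVA and sham arrays of each number averaged. Its smallest value under any alternative was 0.0738, among genes with a mean intensity of at least 50. Of the mitosis genes 24 of 24 were negative, with a median of -0.14 in number 1 and -0.60 in number 2; of the 12 fibroblast markers 11 were positive, with a median of 0.56, of the 12 melanocyte markers 11 were negative, with a median of -0.15, and the marker lists of the other cell types had medians between -0.02 (myeloid cell) and 0.26 (Schwann cell). The part of any of these in the values of the recombination genes was not tested. Fewer dividing cells and less RNA of these genes per cell cannot be told apart in bulk RNA.

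**Figure D1:**
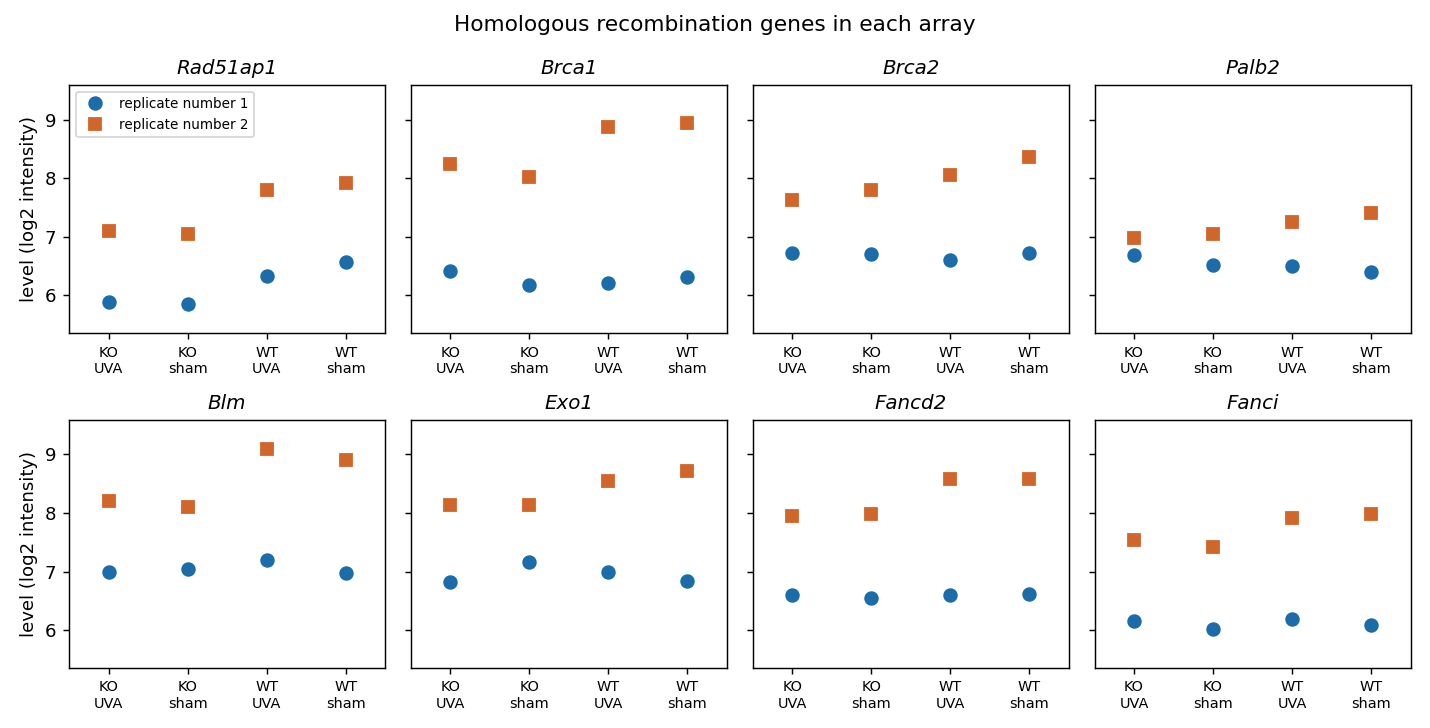
Level (log2 intensity, vertical axis) of the 8 homologous recombination genes in each of the 8 arrays; circles are replicate number 1 and squares number 2. Rad51ap1 has KO below WT within both numbers, while Blm and Brca1 have KO well below WT in number 2 alone.

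Blm, the RecQ helicase that resolves joined DNA molecules, read 7.0 and 8.21 in KO UVA, 7.04 and 8.10 in KO sham, 7.19 and 9.09 in WT UVA, and 6.98 and 8.90 in WT sham. Its KO and WT arrays lay close together in number 1 and apart in number 2, where WT was higher. The averaged difference of -0.45 (SE 0.16) was -0.06 in number 1 and -0.84 in number 2 and did not pass (adjusted p = 0.544). Brca1, which promotes the trimming of broken ends, read 6.41 and 8.24 in KO UVA, 6.17 and 8.02 in KO sham, 6.21 and 8.88 in WT UVA, and 6.32 and 8.94 in WT sham. KO and WT overlapped in number 1, and both KO arrays of number 2 lay below both WT ones. The difference of -0.38 (SE 0.17, adjusted p = 0.574) was 0.02 in number 1 and -0.78 in number 2.

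Fancd2, which with Fanci forms the clamp that marks crosslinked DNA, read 6.60 and 7.95 in KO UVA, 6.56 and 7.99 in KO sham, 6.60 and 8.57 in WT UVA, and 6.62 and 8.58 in WT sham. Again the gap lay in number 2, and the difference of -0.32 (SE 0.13) did not pass (adjusted p = 0.551). Its partner Fanci differed by -0.26 (SE 0.11, adjusted p = 0.553). Brca2, which acts after the ends are trimmed, read 6.73 and 7.62 in KO UVA, 6.70 and 7.81 in KO sham, 6.60 and 8.06 in WT UVA, and 6.73 and 8.37 in WT sham. Number 1 showed no gap, and the averaged difference was -0.23 (adjusted p = 0.637). The nuclease Exo1 differed by -0.21 and Palb2, which bridges Brca1 and Brca2, by -0.08; neither passed, and both were positive in number 1.

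The promoters of these genes were searched because all 8 read higher in number 2. The windows are those of RefSeq on GRCm38.p6, from 250 bases before to 50 after a gene's start, and 33 of the 40 genes have one; Fancd2, Exo1, Xpc, Neil2, Polb, Ercc3 and Ddb2 have no entry. Searched on both strands were core letters of E2F sites, the CCAAT box, and the cell cycle homology element (TTTGAA and TTCGAA). The E2F letters were TTCCCGC or TTGGCGC and also TTGCCGC or TTCGCGC. Capitals mark matches of any of them. Rad51ap1, Blm, Brca1 and Chek2 are shown for their KO minus WT values, and Ercc2 for its UVA values. The choice did not follow the size of the values alone, and all 5 windows shown have an E2F match. Neil3, which differed by more between genotypes than Brca1 or Chek2, is not shown. Its window has 0 E2F and 0 CCAAT matches and 1 of the cell cycle homology element. The window of Polh, named below for its UVA value, has 0 matches of any and is not shown either.
Rad51ap1, chr6:126939538-126939837, minus strand: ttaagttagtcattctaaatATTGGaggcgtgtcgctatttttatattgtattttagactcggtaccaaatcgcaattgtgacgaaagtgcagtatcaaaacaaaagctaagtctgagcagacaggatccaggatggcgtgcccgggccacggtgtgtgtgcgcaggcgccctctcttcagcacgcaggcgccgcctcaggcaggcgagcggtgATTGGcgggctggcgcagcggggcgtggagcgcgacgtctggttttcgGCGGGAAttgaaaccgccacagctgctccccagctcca
Blm, chr7:80534949-80535248, minus strand: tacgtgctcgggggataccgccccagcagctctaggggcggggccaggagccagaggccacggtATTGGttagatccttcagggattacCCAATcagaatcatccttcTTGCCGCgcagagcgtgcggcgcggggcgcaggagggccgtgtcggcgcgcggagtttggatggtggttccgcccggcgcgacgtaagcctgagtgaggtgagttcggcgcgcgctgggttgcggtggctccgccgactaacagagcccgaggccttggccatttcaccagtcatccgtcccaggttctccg
Brca1, chr11:101551906-101552205, minus strand: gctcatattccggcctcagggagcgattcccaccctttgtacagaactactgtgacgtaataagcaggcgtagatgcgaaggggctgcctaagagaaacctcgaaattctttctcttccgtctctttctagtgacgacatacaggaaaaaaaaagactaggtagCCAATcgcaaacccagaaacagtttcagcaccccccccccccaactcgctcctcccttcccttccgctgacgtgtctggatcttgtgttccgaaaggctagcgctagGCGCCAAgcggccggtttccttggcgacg
Chek2, chr5:110839733-110840032, plus strand: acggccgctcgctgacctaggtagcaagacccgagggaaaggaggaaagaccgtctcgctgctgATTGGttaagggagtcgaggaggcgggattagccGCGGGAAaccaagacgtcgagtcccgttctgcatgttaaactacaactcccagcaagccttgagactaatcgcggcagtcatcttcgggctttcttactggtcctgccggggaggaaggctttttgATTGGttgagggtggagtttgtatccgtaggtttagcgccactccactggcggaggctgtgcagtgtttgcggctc
Ercc2, chr7:19381767-19382066, plus strand: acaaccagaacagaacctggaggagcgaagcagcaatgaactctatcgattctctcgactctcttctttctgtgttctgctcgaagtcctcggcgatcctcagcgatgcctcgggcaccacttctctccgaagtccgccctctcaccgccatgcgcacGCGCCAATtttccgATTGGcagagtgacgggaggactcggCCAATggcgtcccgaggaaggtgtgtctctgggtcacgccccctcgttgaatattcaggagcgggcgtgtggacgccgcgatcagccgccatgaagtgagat

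In Rad51ap1 the E2F match begins 12 bases after the start, and in Brca1 21 bases after it. The match in Blm begins 142 bases before the start, and that in Chek2 152 bases before. In Ercc2 the E2F match, 92 bases before the start, overlaps a CCAAT box. The E2F letters were in 5 of 6 recombination windows (not in Palb2), 3 of 4 checkpoint windows, 3 of 9 of nucleotide excision and 3 of 14 of base excision, against 9.57% of all 32851 windows. These letters were chosen after a longer set (TTTGGCGC or TTTCGCGC and also TTTCCCGC or TTTGGCGG) had matched 1 of 6 recombination windows, against 2.37% of all, and with the Rad51ap1 window in view, so the share is a description that depends on the letters. CCAAT was in 4 of 6 recombination and 6 of 9 nucleotide excision windows, against 37.4% of all, and the cell cycle homology element in 0 of 6 recombination windows, against 19.2%. A match is not a site of binding.

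The gap between the replicate numbers is given by class as a description, with no test. Number 2 over number 1, all 8 recombination genes were higher, with a median of 1.17 in KO and 1.77 in WT. In number 2, 7 of 8 were higher by more than 1 log2 unit, where 2.07% of all genes were. Brca1 had the widest gap of the class, at 2.24, and Palb2 the narrowest, at 0.64. Base excision genes were all higher too, but with medians of 0.19 in KO and 0.38 in WT, and Neil3 alone passed 1 unit, at 1.48. Nucleotide excision genes stayed near level, with medians of -0.07 in KO and 0.01 in WT, and gaps between -0.29 for Ercc1 and 0.55 for Ercc5. Mitosis genes had medians of 2.06 in KO and 2.86 in WT.

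**Figure D2:**
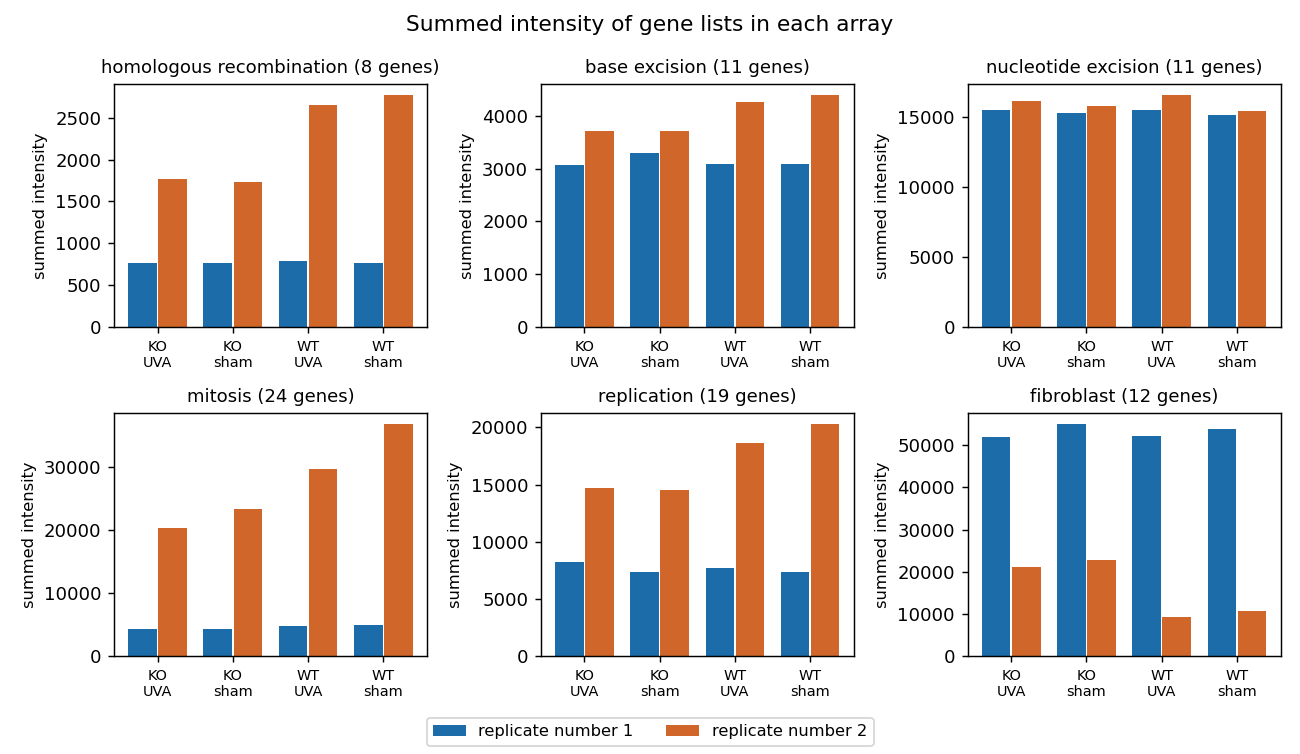
Summed linear intensity (vertical axis, from 0) of 3 repair classes and of mitosis, replication and fibroblast genes in each array, in pairs of number 1 and number 2. Recombination sums were 1772 and 1728 in number 2 KO UVA and KO sham, against 2657 and 2768 in WT UVA and WT sham. Nucleotide excision sums lay between 15102 and 16529 in all 8 arrays. Those sums are weighted to the brightest genes, with mean intensities of 6165 for Ddb1, 3079.8 for Rad23b and 1894.4 for Ercc3, against a class median of 651.

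Base excision genes had a median KO minus WT difference of -0.09, with 9 of 11 negative, and none passed. In both numbers 5 of 11 were negative, where 26.5% of all genes were. Neil3, a glycosylase for oxidised bases that is known from dividing cells, read 6.74 and 7.62 in KO UVA, 6.41 and 7.85 in KO sham, 6.70 and 8.38 in WT UVA, and 6.66 and 8.59 in WT sham. The genotypes overlapped in number 1, KO lay below WT in number 2, and the averaged difference was -0.43 (SE 0.16, adjusted p = 0.548). Nudt1, which clears oxidised dGTP from the nucleotide pool, read 6.79 and 7.30 in KO UVA, 6.94 and 7.04 in KO sham, 6.87 and 7.30 in WT UVA, and 7.06 and 7.39 in WT sham. The groups overlapped, and the difference was -0.13 (SE 0.09). Xrcc1, the scaffold of single-strand break repair, read 8.74 and 8.96 in KO UVA, 8.77 and 8.93 in KO sham, 8.82 and 9.07 in WT UVA, and 8.82 and 9.22 in WT sham. Its difference of -0.13 (SE 0.07, adjusted p = 0.615) was -0.07 in number 1 and -0.20 in number 2. Neil2, another glycosylase for oxidised bases, read 6.90 and 7.25 in KO UVA, 7.23 and 6.98 in KO sham, 7.04 and 7.18 in WT UVA, and 7.08 and 7.49 in WT sham; KO and WT overlapped, with a difference of -0.11 (SE 0.12). Parp1, which senses strand breaks, read 9.51 and 9.59 in KO UVA, 9.60 and 9.70 in KO sham, 9.41 and 9.89 in WT UVA, and 9.43 and 10.04 in WT sham. The KO arrays were the higher in number 1 and the lower in number 2 (-0.09, SE 0.10). Ogg1, the glycosylase for 8-oxoguanine, differed by -0.06, Mutyh, which removes adenine opposite it, by -0.08, Nth1 by -0.09, Neil1 by -0.04, the uracil glycosylase Ung by 0.03 and the gap-filling polymerase Polb by 0.05.

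Nucleotide excision genes had a median KO minus WT difference of -0.03, with 7 of 11 negative, and none passed. Ercc1, a subunit of the nuclease that cuts on the 5′ side of the lesion, had the highest value, 0.20 (SE 0.10, adjusted p = 0.604). It read 10.50 and 10.35 in KO UVA, 10.60 and 10.62 in KO sham, 10.57 and 10.08 in WT UVA, and 10.57 and 10.04 in WT sham. The arrays of number 1 were close, and in number 2 both KO arrays lay above both WT arrays. Ercc6, which couples repair to stalled transcription, read 9.23 and 9.27 in KO UVA, 9.27 and 9.26 in KO sham, 9.27 and 9.59 in WT UVA, and 9.30 and 9.53 in WT sham. Its difference was -0.17 (SE 0.08, adjusted p = 0.581), with KO below WT mainly in number 2. Ercc3, a helicase of TFIIH, read 11.04 and 10.85 in KO UVA, 10.94 and 10.88 in KO sham, 10.89 and 10.83 in WT UVA, and 10.92 and 10.74 in WT sham, and differed by 0.08 (SE 0.05). Xpa, which verifies the lesion, differed by 0.00, Ddb1 by -0.01 and Rad23b, the partner of Xpc, by -0.05. Ercc8, which acts with Ercc6, differed by -0.06 and Ercc4, the partner of Ercc1, by -0.03.

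The checkpoint kinases were all below WT on average, with a median of -0.15, and none passed. Chek2, the kinase that Atm activates at breaks, read 7.10 and 8.34 in KO UVA, 6.99 and 8.38 in KO sham, 7.15 and 8.64 in WT UVA, and 7.25 and 8.87 in WT sham. Both KO arrays lay below both WT arrays within each number, with differences of -0.16 in number 1 and -0.40 in number 2, and the averaged difference was -0.28 (SE 0.08, adjusted p = 0.503). Chek1, which Atr activates at stalled forks, read 7.17 and 7.65 in KO UVA, 7.23 and 7.60 in KO sham, 7.25 and 7.98 in WT UVA, and 7.16 and 8.05 in WT sham, with a difference of -0.20 (adjusted p = 0.614). The gap in Chek1 lay in number 2. Atm, the kinase that responds to double-strand breaks, read 8.31 and 8.61 in KO UVA, 8.49 and 8.67 in KO sham, 8.31 and 8.67 in WT UVA, and 8.34 and 8.96 in WT sham, and Atr, its counterpart at single-stranded DNA, read 8.08 and 8.37 in KO UVA, 8.35 and 8.07 in KO sham, 8.34 and 8.19 in WT UVA, and 8.39 and 8.37 in WT sham. Both overlapped between genotypes, with -0.05 for Atm and -0.10 for Atr; Atr has a second probe set, and the mean of both gave 0.04. The translesion polymerase Polk read 9.33 and 9.80 in KO UVA, 9.46 and 9.64 in KO sham, 9.38 and 9.81 in WT UVA, and 9.41 and 9.53 in WT sham, and differed by 0.02. Msh6, which recognises mismatches, read 8.0 and 8.25 in KO UVA, 8.0 and 8.0 in KO sham, 8.03 and 8.35 in WT UVA, and 7.74 and 8.21 in WT sham, and differed by -0.02.

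**Figure D3:**
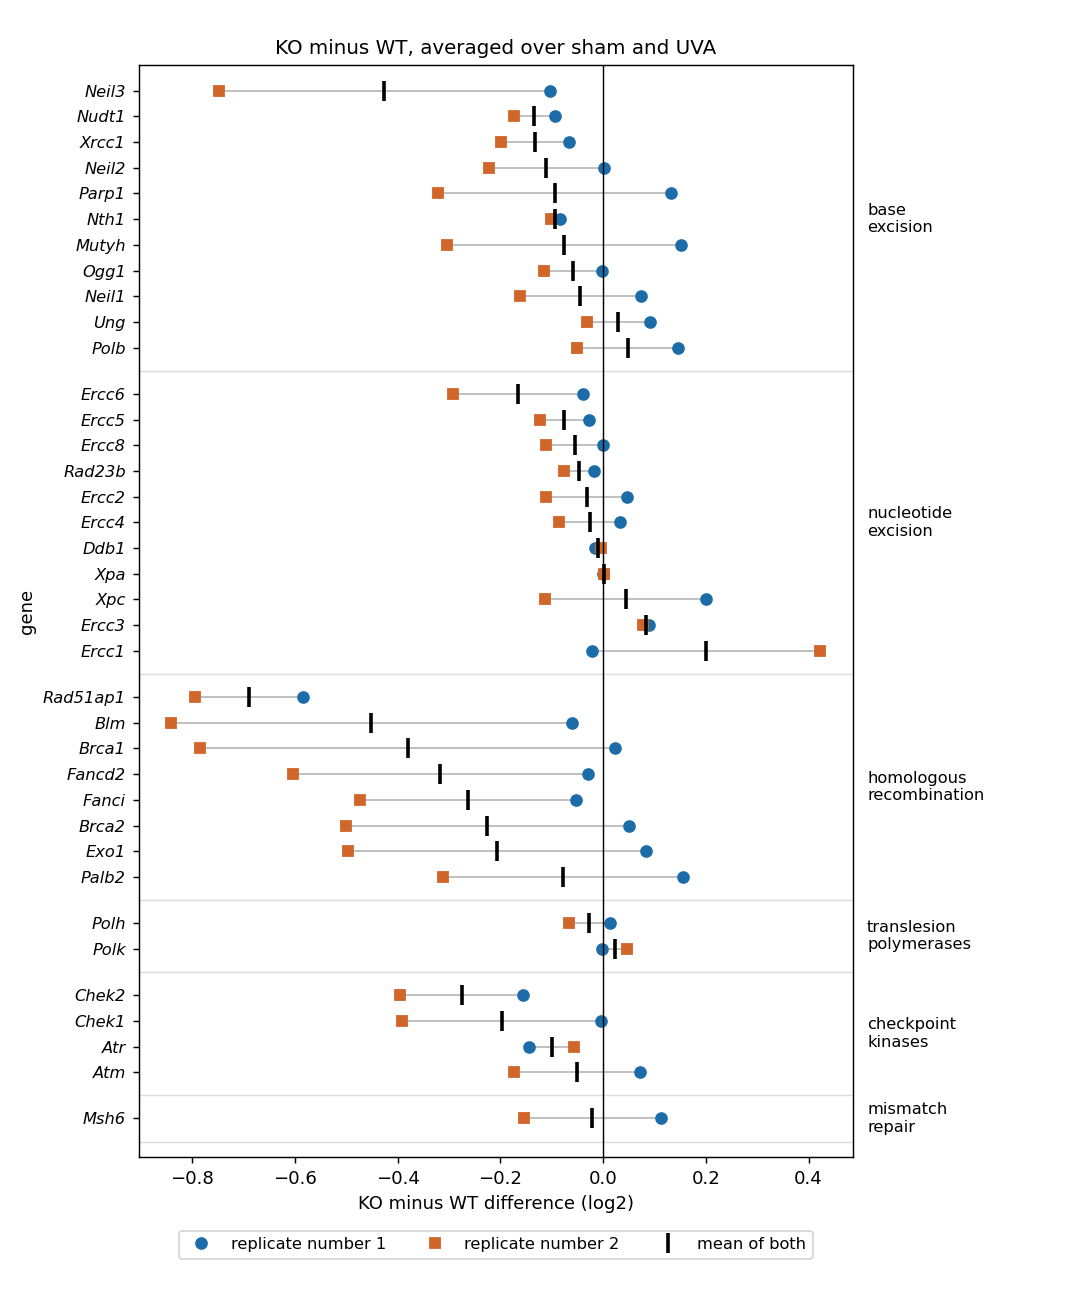
KO minus WT difference (log2, horizontal axis) of the 37 measured genes averaged over both treatments, by class; circles are replicate number 1, squares number 2 and bars their mean. Rad51ap1 lies at -0.69 and Ercc1 at 0.20, the 2 ends of the set.

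Within a treatment the genotype comparison passed no gene of the 22180 (0%): after UVA, 927 genes (4.18%) had an unadjusted p under 0.05, among the repair genes Rad51ap1 alone, and after sham 1230 (5.55%), among them Rad51ap1 and Chek2. Rad51ap1 differed by -0.58 after UVA (adjusted p = 0.957) and by -0.80 after sham (adjusted p = 0.393). Recombination genes were negative in 8 of 8 cases under either treatment, with medians of -0.26 after UVA and -0.32 after sham. After UVA the median was -0.02 in number 1 and -0.53 in number 2, and after sham -0.04 and -0.58. In both numbers 4 of 8 were negative after UVA, where 5778 of all 22180 genes were. After sham 5 of 8 were, where 4941 of all genes were. The comparisons share no arrays but share the replicate numbers.

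UVA against sham, averaged over genotypes, passed 0 of 37 repair genes, where 0.0135% of all genes passed. At an unadjusted p under 0.05 there were 3, namely Ercc2, Xpc and Polh, against 6.54% of all genes. Nucleotide excision genes were positive in 10 of 11 cases, 8 of them in both numbers, where 28.3% of all genes were; their median was 0.07, against 0.002 over all genes. Recombination genes were split 4 and 4. Base excision genes ran the other way in sign to nucleotide excision, with 9 of 11 negative and a median of -0.05. In both numbers 6 of 11 were negative, where 5917 of all 22180 genes were. This contrast of signs was not seen in the other genes of the same pathways, where 10 of 13 of base excision were positive, with a median of 0.02, and 9 of 17 of nucleotide excision were negative, with a median of -0.04.

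Ercc2, the TFIIH helicase that unwinds DNA at the lesion, read 9.88 and 9.65 in KO UVA, 9.61 and 9.35 in KO sham, 9.81 and 9.70 in WT UVA, and 9.59 and 9.52 in WT sham. Every UVA array lay above the sham array of its genotype and number, and the averaged difference was 0.25 (SE 0.06), with 0.24 in number 1 and 0.25 in number 2. It did not pass (adjusted p = 0.671; 0.0921 with genotype and number together as a block). Xpc, the sensor that opens global repair, read 8.12 and 8.12 in KO UVA, 8.01 and 7.84 in KO sham, 8.02 and 8.25 in WT UVA, and 7.71 and 7.94 in WT sham. Here too every UVA array lay above its sham array, and the averaged difference was 0.26 (SE 0.09, adjusted p = 0.718). Polh, the polymerase that copies past pyrimidine dimers, read 9.15 and 9.40 in KO UVA, 8.94 and 9.23 in KO sham, 9.13 and 9.44 in WT UVA, and 8.93 and 9.32 in WT sham, with a difference of 0.18 (SE 0.06, adjusted p = 0.718). XPC and POLH are known p53 targets in human cells; of 18 p53 targets outside repair, 16 were positive with a median of 0.19, and their part in these values was not tested.

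Ercc5, the nuclease that cuts on the 3′ side, read 8.84 and 9.52 in KO UVA, 8.85 and 9.17 in KO sham, 8.85 and 9.69 in WT UVA, and 8.89 and 9.25 in WT sham. The UVA excess lay in number 2, and the difference was 0.19 (SE 0.10). Ercc4 differed by 0.16, Msh6 by 0.17 and Ercc1, the 1 negative gene of its class, by -0.08. Brca2 differed by -0.15 (SE 0.13), Blm by 0.12, Neil2 by -0.10, Parp1 by -0.09 and Atm by -0.14; none passed.

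**Figure D4:**
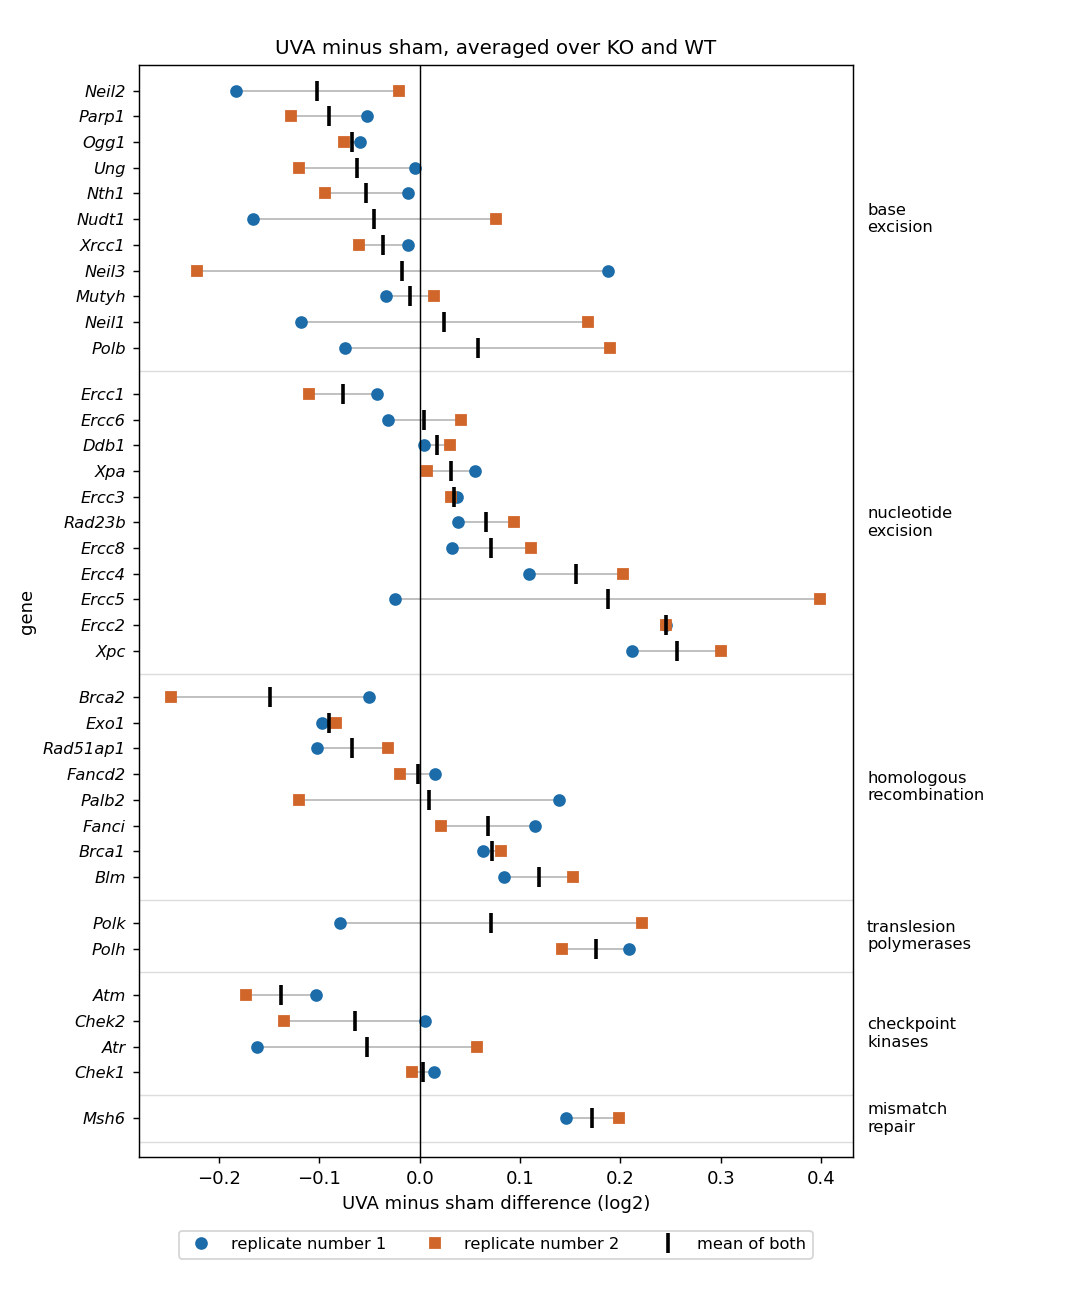
UVA minus sham difference (log2, horizontal axis) of the 37 measured genes averaged over both genotypes, by class; circles are replicate number 1, squares number 2 and bars their mean. Xpc (0.26) and Ercc2 (0.25) lie highest, and Brca2 (-0.15) lies lowest.

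By genotype, UVA against sham passed 0 repair genes in KO (0.00902% of all genes passed; 4.02% had an unadjusted p under 0.05, of the repair genes Ercc2) and 0 in WT (0.00451% passed; 3.94%, of the repair genes Xpc). Nucleotide excision genes were positive in 8 of 11 cases in KO, with a median of 0.04, and in 11 of 11 in WT, with a median of 0.11. Base excision genes were negative in 7 of 11 in KO, with a median of -0.03, and 8 of 11 in WT, with -0.08. The difference between these responses was tested gene by gene as the interaction. It passed no gene (0% of all genes; 2.06% had an unadjusted p under 0.05, and none of the 37 repair genes).

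Other genes of the same pathways, 96 measured of 110 listed, gave 0 past the threshold in the averaged genotype comparison, where 0.0316% of all genes passed. At an unadjusted p under 0.05 there were 15 of 96, against 8.88% of all genes. Of the 96 genes 80 were negative, with a median of -0.10, where 11995 of all 22180 genes were negative, with a median of -0.01. As in the genes above, the negative median of these 96 lay in number 2, at -0.17, against -0.01 in number 1. In both numbers 46 of 96 were negative, where 26.5% of all genes were. Of 30 other recombination and Fanconi genes 25 were negative, led by Bard1, the partner of Brca1, at -0.63 (adjusted p = 0.345) and the nuclease subunit Eme1 at -0.55 (adjusted p = 0.297). Of 13 other base excision genes 12 were negative, among them the ligase Lig1 at -0.23 and Aplf at -0.24. The replicative polymerases Pold1 and Pole, which also fill excision gaps, stood at -0.35 and -0.35 among 17 nucleotide excision genes with 13 negative. All 15 other checkpoint genes were negative, with H2afx at -0.41 and Topbp1 at -0.24. Number 1 gave a median of only -0.003 and number 2 one of -0.22, and 7 of 15 were negative in both (26.5% of all genes). Of 9 end joining genes 8 were negative, with Polq at -0.41 and Lig4 at -0.22; Msh3 and Pms1 of mismatch repair stood at -0.18 and -0.18, and Mgmt and Rad18 of damage reversal and bypass at 0.31 and -0.18. For UVA against sham 51 of the 96 were positive, where 11311 of all 22180 genes were, and 0 passed, against 0.0135% of all genes. By list, 10 of 13 base excision, 8 of 17 nucleotide excision, 12 of 30 recombination and Fanconi, 2 of 4 mismatch repair, 4 of 9 end joining, 5 of 8 bypass and reversal, and 10 of 15 checkpoint genes were positive. Those furthest from 0 in their lists included Tdp1 at -0.23, Rmi1 at 0.19, Prkdc at -0.23 and Rev1 at 0.08.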

How the data were processed

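Sample titles gave the groups and the replicate numbers. Per the submitters' processing notes, the deposited intensity values were made by RMA in Affymetrix Expression Console 1.3.1.187; no genome build is given there. The deposited intensities are linear and whole (7 to 22585); log2 values had been planned for, so log2 was taken, with no pseudocount. RMA forces near-equal distributions, so a shift of most transcripts would not be seen. Of 41345 probe sets 23521 had a single symbol, 1814 several and 16010 none, giving 22180 genes, of which 21994 were found by Entrez identifier in RefSeq.

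limma 3.58.1 in R 4.3.3 fitted 4 group means with the replicate number as a block (3 residual degrees of freedom) and eBayes with a trend; tests were two-sided and adjusted by Benjamini-Hochberg over all genes. The block is in the main fit because the rule for these genes pairs arrays by number; for all 6 pairs of groups, the same-numbered arrays deviated together (r between 0.80 and 0.92). UVA and sham arrays of a number enter as separate arrays, so genotype p-values are too small if they share a culture. The fit was tested on simulated data in which each array varied independently, so that test cannot cover arrays that share a culture. Alternatives were no block, genotype with number as a block, UVA and sham arrays averaged, a minimum mean intensity of 50, the mean of all probe sets, median centring, no trend, and each array left out. Named genes are, per class, the 4 with the largest absolute averaged genotype difference and the 2 with the largest for UVA; of each other list, 2 and 1. The genes, lists and tests were chosen with earlier results of these data known, and the E2F letters after the windows had been searched once.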

Additional observations from a re-analysis of the deposited data

How the results depend on the processing

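No repair gene passed under any alternative run. With no replicate block, 0 genes of all passed in the averaged genotype comparison (517 at an unadjusted p under 0.05), against 7 with it, 0 for UVA averaged (401), against 3, and 0 for UVA in KO (348) and in WT (342), against 2 and 1. Averaging the UVA and sham arrays of each number gave 0 for genotype (736 at an unadjusted p under 0.05). With genotype and number as a block, UVA passed 97 genes averaged and 12 in WT; without a trend it passed 0 in KO (899 at an unadjusted p under 0.05) and 0 in WT (872). Leaving out 1 array at a time gave 0 to 0 genes for genotype averaged whichever of the 8 arrays it was (917 to 2509 at an unadjusted p under 0.05), 0 to 2 for UVA averaged, and 0 to 0 for UVA in KO (765 to 1109) and in WT (625 to 904). A lone array of a group was then assumed to vary like the other groups. These leave-one-out fits have fewer residual degrees of freedom (2); the cause of the other changes was not tested.

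Median UVA differences ranged, with 1 array left out, from -0.085 to 0.007 for base excision, 0.0255 to 0.0983 for nucleotide excision and -0.103 to 0.117 for recombination genes. Of 420 values of 30 results for named repair genes, 400 kept their sign and 20 changed it, in 11 results, none of which had passed. For Atr between genotypes the mean of both probe sets gave 0.0368. The other changes of sign came with 1 array left out. Between genotypes the ranges were -0.249 to 0.0272 for Neil2, -0.172 to 0.0206 for Ercc5, -0.0551 to 0.0015 for Polh, -0.0371 to 0.0828 for Polk, -0.21 to 0.0092 for Atr, -0.135 to 0.0337 for Atm and -0.108 to 0.0655 for Msh6. For UVA they were -0.24 to 0.0363 for Neil2, -0.188 to 0.007 for Parp1, -0.0374 to 0.275 for Blm and -0.13 to 0.0002 for Chek2.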
